A study of Mus musculus with 6 samples.

Results

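The genes described here are 7 of the 19938 genes measured, namely Lcn11, 5430401F13Rik, BC051076, Csn3, Car6, Scgb2b27 and Scgn. They were picked by symbol because their signal was high in cells heterozygous for a Fezf1 mutation and low in null cells, so the contrast between genotypes chose them and their fall is given as a description, with no test. Each of the 7 was read from the 1 probe set that names it and no other gene. The material was the main olfactory epithelium of C57BL/6 mouse embryos at E18.5, from which EGFP-positive cells were sorted. Both genotypes, Fezf1 +/- (3 arrays) and Fezf1 -/- (3 arrays), carry EGFP under the endogenous Fezf1 promoter in at least 1 targeted allele. The sort selected for EGFP made from this promoter, and whether the promoter was active in every sorted cell was not tested. No wild-type cells were part of the comparison. The labels do not say whether an array holds 1 embryo or a pool. All values are log2 units of background-corrected signal, differences are null minus heterozygous, and with 3 arrays a group their precision is limited.

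Several of the 7 genes belong to families of proteins that glands release into saliva, tears, milk or nasal mucus. Lipocalins are small secreted carriers with a cavity for hydrophobic ligands, and some of them occur as odorant-binding proteins in nasal secretions. Secretoglobins are small secreted proteins that include the androgen-binding proteins of mouse saliva and tears. Caseins are the main proteins of milk, and carbonic anhydrases interconvert carbon dioxide and bicarbonate. Fezf1, the gene mutated here, encodes a transcription factor with zinc fingers that acts in the developing nose and forebrain. The heading "secreted" did not cover the whole set. RefSeq listed BC051076 as a long non-coding RNA, and Scgn encodes secretagogin, an EF-hand calcium sensor that acts inside cells.

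Fezf1 itself, the check of the labels, stood at 11.25, 11.12 and 11.30 on heterozygous replicates 1, 2 and 3 and at 5.56, 5.92 and 6.28 on the null arrays. The sorted cells carried the markers of olfactory neurons. On every heterozygous array, 10 of 10 mature neuron markers and 7 of 7 immature neuron markers lay above the upper quartile of the array. So did 5353 of 19938 genes. Transcripts of supporting cells were present as well, with the sustentacular cytochrome Cyp2g1 between 11.3 and 11.6 on these arrays. The array of null replicate 1 differed most from the rest: across genes it correlated at 0.905 to 0.935 with the other 5, which correlated at 0.975 to 0.995 with one another. Its mesenchyme markers summed to 13.98 in log2 units against 9.62 to 11.07 elsewhere, and results are also given without it. In a bulk sort, fewer cells of a type and less RNA per cell cannot be told apart.

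Lcn11, which encodes a lipocalin, stood at 10.38, 11.52 and 11.23 on heterozygous replicates 1, 2 and 3. Its null values were 4.53, 5.08 and 5.07. The heterozygous arrays placed it above 96.1% to 98.3% of their probe sets and the null arrays above 26.7% to 36.8%. The mean fell from 11.04 ± 0.59 to 4.89 ± 0.31 (SD, n = 3 each), a 70.9-fold lower signal, and every null value lay above the lower quartile and below the median of its array.

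5430401F13Rik, a protein-coding gene without a descriptive name, stood at 9.55, 10.75 and 10.64 on the heterozygous arrays. On the null arrays it stood at 3.62, 3.44 and 3.75, which placed it above 8.92% to 13.9% of their probe sets. The difference was -6.71. All 3 null values were below the lower quartile of their array, where the background estimate sets differences, and with values under that quartile raised to it the difference was -5.89, a 59.4-fold lower signal, so its order against Lcn11 and BC051076 depends on the background estimate.

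BC051076, the RNA that RefSeq lists as non-coding, stood at 10.31, 11.53 and 11.44 in heterozygous cells and at 4.58, 4.77 and 4.91 in null cells. The means were 11.09 ± 0.68 and 4.76 ± 0.17 (SD, n = 3 each), an 81.0-fold lower signal. With Lcn11 and 5430401F13Rik it formed a group of 3 genes that lay above the upper quartile on every heterozygous array and below the median on every null array.

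The sequences before the transcription start were read for the 3 genes with the largest falls, since they move together and lie on different chromosomes. RefSeq windows of GRCm38.p6 were matched by symbol for 6 of the 7 genes, all but Csn3. Each run gives the 250 bases before the annotated start, 5′ to 3′ on the strand of the gene, with capitals for TATAAA (the TATA box) and TAAT (a homeodomain core), each searched on both strands. The windows are chr2:25776767-25777016 for Lcn11, chr6:131543512-131543761 for 5430401F13Rik and chr5:87957372-87957621 for BC051076, all on the + strand.
Lcn11: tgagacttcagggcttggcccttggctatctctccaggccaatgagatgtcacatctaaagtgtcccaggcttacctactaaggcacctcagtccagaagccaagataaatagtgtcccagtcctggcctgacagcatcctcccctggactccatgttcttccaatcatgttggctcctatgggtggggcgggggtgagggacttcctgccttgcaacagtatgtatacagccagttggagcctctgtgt
5430401F13Rik: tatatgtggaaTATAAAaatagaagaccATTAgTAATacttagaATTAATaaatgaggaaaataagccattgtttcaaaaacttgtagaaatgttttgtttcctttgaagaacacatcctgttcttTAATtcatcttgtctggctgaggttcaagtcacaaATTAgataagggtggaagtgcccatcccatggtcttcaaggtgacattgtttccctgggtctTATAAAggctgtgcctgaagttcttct
BC051076: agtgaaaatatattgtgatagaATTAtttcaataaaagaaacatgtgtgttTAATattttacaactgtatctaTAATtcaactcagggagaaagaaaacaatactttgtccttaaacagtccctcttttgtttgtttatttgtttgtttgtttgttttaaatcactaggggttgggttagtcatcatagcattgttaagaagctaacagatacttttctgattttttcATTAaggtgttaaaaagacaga

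The windows of 5430401F13Rik and BC051076 were low in GC and held several TAAT matches, and that of Lcn11 was neither. GC content was 53.6% for Lcn11, 35.2% for 5430401F13Rik and 28.0% for BC051076, with a median of 52.0% over 27025 promoters. The 5430401F13Rik window held TATAAA at 2 places, the nearer from 27 to 22 bases before the start, and no other of the 6 windows held it, where 12.97% of all promoters did. TAAT was found 6 times in 5430401F13Rik, 4 times in BC051076 and 0 times in Lcn11, and 4 of the 6 windows held it, where 55.3% of all promoters did. TAATTA was in 0 of 6 windows and in 4.90% of all promoters, and the palindrome of Ebf factors was in 0 of 6 and in 0.788%. CANNTG, the E-box, was in 4 of 6 windows and in 66.0% of all promoters. These are matches of letters in a short window and do not mark sites of binding.

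The step from high to low signal in these genes was rare on the arrays. It was met by 9 of 19938 genes, the 3 above and 6 odorant receptors (Olfr727, Olfr1208, Olfr726, Olfr166, Olfr6 and Olfr720), and the opposite pattern, high in null and low in heterozygous cells, by 0 genes. The receptor differences ran from -5.45 for Olfr727 to -2.80 for Olfr720. Outside the receptors the pattern was therefore held by 3 genes, all of them chosen for it.

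**Figure D1:**
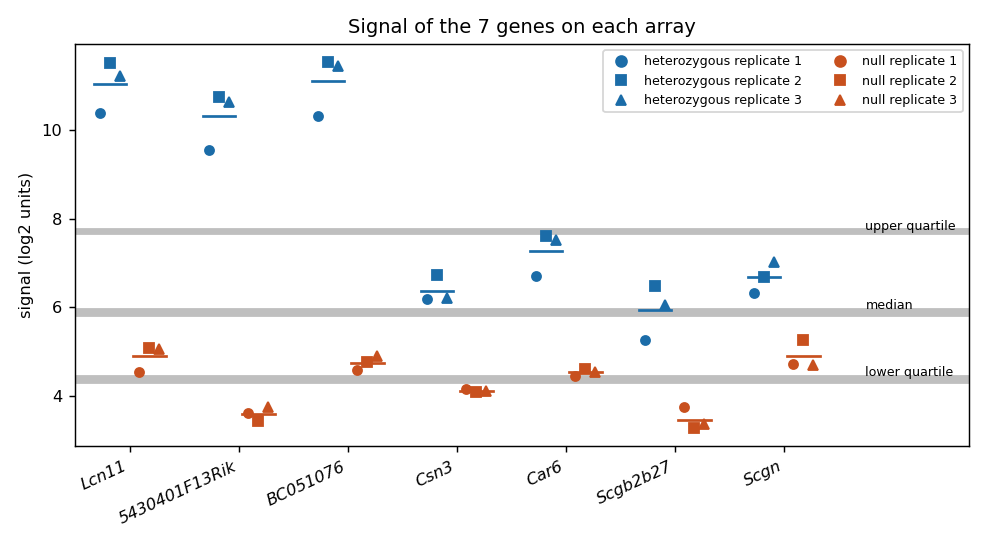
Signal in log2 units (y axis) of the 7 genes (x axis) on each of the 6 arrays, with blue for heterozygous and orange for null arrays, the shape for the replicate number and a line for the mean of 3 arrays. Grey bands mark the quartiles of the arrays: in each gene the 3 null values lie below the 3 heterozygous values, and all null values lie below the median band.

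The other 4 genes started from the middle of the array range, so the word "high" fits them less well. Car6, the carbonic anhydrase that salivary glands secrete, stood at 6.71, 7.61 and 7.51 on the heterozygous arrays. Its null values were 4.46, 4.61 and 4.54, just above the lower quartile of their arrays (4.44, 4.41 and 4.42). The difference was -2.74, a 6.68-fold lower signal. All heterozygous values lay above the median and none above the upper quartile.

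Csn3 encodes kappa-casein, the protein that keeps casein micelles of milk in suspension. It stood at 6.19, 6.73 and 6.21 in heterozygous cells and at 4.15, 4.08 and 4.10 in null cells, which differed among themselves by 0.07. The difference was -2.27, and -1.95 with values raised to the lower quartile, since all 3 null values lay under it.

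Scgb2b27, a secretoglobin of the androgen-binding protein group, had the lowest starting point against its arrays. It stood at 5.26, 6.47 and 6.06 on the heterozygous arrays, with replicate 1 below the array median of 5.94. The null values were 3.75, 3.28 and 3.38, all under the lower quartile. The difference of -2.46 shrank to -1.51 with values raised to that quartile. A second probe set that names both Scgb2b27 and its relative Scgb2b26 lay between 3.46 and 3.89 on all 6 arrays and was not used.

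Scgn stood at 6.33, 6.69 and 7.02 in heterozygous cells and at 4.71, 5.27 and 4.70 in null cells. The difference was -1.79 (3.45-fold lower), the smallest of the 7, and its null values stayed between the lower quartile and the median of their arrays. In all 7 genes the groups did not overlap. Over all genes 8.77% had every null value below every heterozygous value, and 9.72% had every null value above. By limma (Benjamini-Hochberg adjusted p under 0.05) 0.456% of all genes were lower in null cells, 0.0953% higher and 0.552% either. The 91 lower genes include 7 of 7, which follows from how the 7 were chosen and is no test of them. Leaving out single arrays ended the calls of Car6 and Scgb2b27 in 4 of 6 fits and of Scgn in 5 of 6. The differences of the 7 without null replicate 1 ran from -6.72 for 5430401F13Rik to -1.70 for Scgn.

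**Figure D2:**
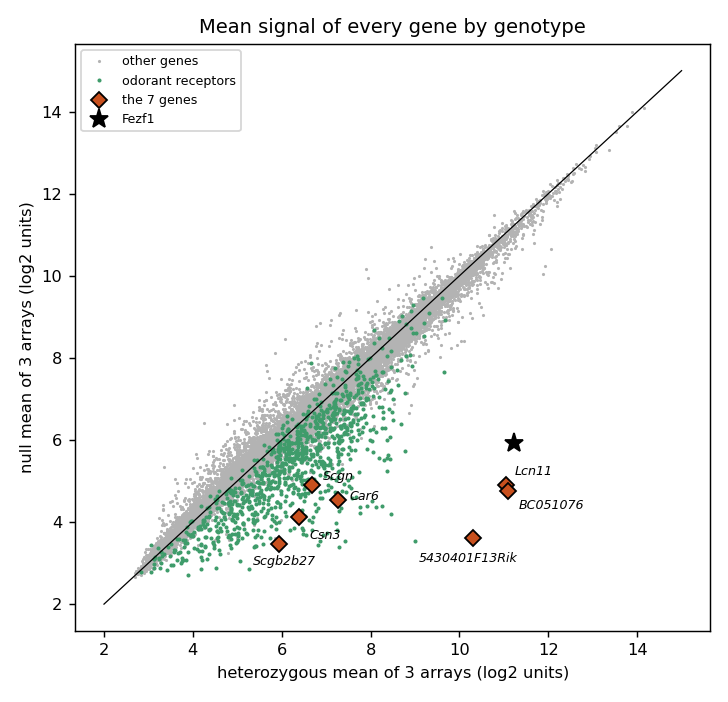
Null mean (y axis) against heterozygous mean (x axis) in log2 units, 3 arrays each, for all 19938 genes, with the line of equality, odorant receptors in green, the 7 genes as diamonds and Fezf1 as a star. Lcn11, BC051076 and 5430401F13Rik have differences of -6.15 to -6.71, followed by Olfr727 at -5.45 and Fezf1 at -5.31, while Car6, Csn3, Scgb2b27 and Scgn lie among the receptors that fell.

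The 91 genes lower in null cells were 78 odorant receptors and 13 other genes, and 7 of those 13 are described here. Fezf1 and 5 further genes made up the rest, and their signal in null cells was as follows. Pde7b, a cyclic AMP phosphodiesterase, stood between 8.84 and 9.21 on the null arrays (difference -1.49). Arxes2 (-1.28), Lypd1 (-1.04), Mfsd4a (-1.03) and the coactivator gene Ppargc1a (-0.77) had null means of 7.18, 6.99, 6.85 and 6.09. The medians of the null arrays were 5.88 to 5.95, and low null signal was part of the choice of the 7 genes.

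The genes whose profile over the 6 arrays came closest to the median profile of the 7 were receptors as well. Ranked by root mean square distance between profiles centred on each gene's own mean, the nearest 8 were Olfr1263, Olfr1098, Olfr292, Olfr1256, Olfr1228, Olfr286, Olfr1442 and Olfr6. The distances ran from 0.16 to 0.26 log2 units and Pearson's r over the 6 arrays from 0.985 to 0.996, which describes mainly the step between genotypes that all these genes share. The median difference of the 7 was -2.74, so this profile does not stand for Lcn11, 5430401F13Rik and BC051076 (-6.15 to -6.71). Among genes called lower that were neither receptors nor among the 7, only Fezf1 (-5.31) fell further than Pde7b (-1.49). Few genes other than receptors could thus come near this profile. Olfr1263 stood at 6.61, 7.80 and 7.58 in heterozygous cells and at 4.28, 4.48 and 4.23 in null cells. Probe sets of receptors can also bind transcripts of related receptors, which makes the value of any 1 of them uncertain.

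The spread among the heterozygous arrays, which the choice of genes did not use, was shared by most of the 7. Heterozygous replicate 1 was the lowest of the 3 in 7 of 7 genes, as it was in 30.4% of all genes. The order from high to low was replicate 2, 3, 1 in 6 of 7, all but Scgn, against 11.4% of all genes. In Csn3 replicates 3 and 1 differed by only 0.02. In 5 of 7, namely BC051076 (1.13), 5430401F13Rik (1.08), Lcn11 (0.85), Car6 (0.80) and Scgb2b27 (0.79), replicate 1 lay at least 0.5 below the lower of the other heterozygous arrays. Such a gap was found in 1.39% of all genes (0.492% had replicate 1 as far above), in 15.4% of the 1027 odorant receptors and in 0.63% of the other genes. Replicate 1 as the low array, the order 2, 3, 1 and the limit of 0.5 were all set after the values were seen. The counts therefore describe the 7 genes and are no test of them. The count of gaps was also 5 after quantile normalisation, after median centring and with the floor at the lower quartile. Csn3 (0.02) and Scgn (0.36) did not reach it.

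Cell type markers were read on the same arrays. As deviations from the mean of their genotype, the median of the 7 genes was -0.66, 0.43 and 0.23 on heterozygous replicates 1, 2 and 3. Mature neuron markers had medians of -0.17, -0.15 and 0.32, and odorant receptors -0.19, -0.12 and 0.33, so both were highest on replicate 3. Secretory gland markers had medians of -0.05, 0.14 and -0.18, highest on replicate 2, and mesenchyme markers 0.03, 0.75 and -0.82. The part of these cell types in the spread of the 7 genes was not tested. On null replicate 1 mature markers lay at -1.11 and receptors at -0.57 from the null mean. The 7 genes had a median of -0.08 there, but they lay low on all null arrays and had little room to fall.

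**Figure D3:**
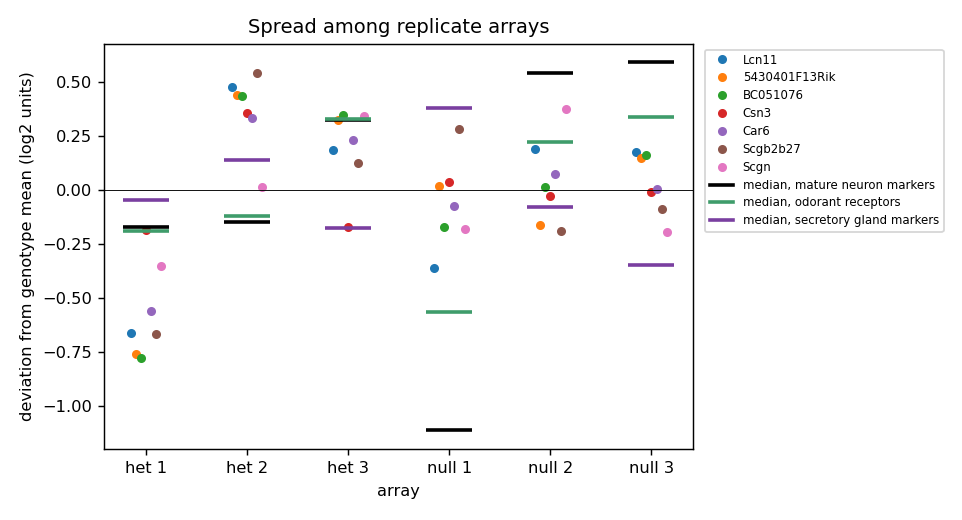
Deviation from the mean of the same genotype in log2 units (y axis) on each array (x axis), with a dot for each of the 7 genes and bars for the median of mature neuron markers, odorant receptors and secretory gland markers. The 7 genes lie lowest on heterozygous replicate 1, with a median of -0.66, while mature markers lie lowest on null replicate 1, at -1.11.

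Because several of these proteins are products of glands, gland markers were examined beside them. Of 30 listed markers of Bowman, nasal and salivary glands 29 were measured. By limma 0 of them passed, where 0.552% of all genes did, so 0 is near that share. At an unadjusted p under 0.05 there were 0 as well, where 5.25% of all genes were lower and 4.23% higher. Of the 29, 5 lay above the upper quartile on every heterozygous array and 6 under the lower quartile on every null array. Over all 19938 genes these counts were 5353 and 2766. Markers low in both genotypes had little room to fall. The median difference of the 29 was -0.01, against 0.02 over all genes, and it moved to -0.34 without null replicate 1, against 0.02 again. In that fit 21 of 29 had a negative difference, as did 8916 of 19938 genes, the lowest of the list being -1.35 for Bpifb9b. There 0 of the 29 passed, where 2.66% of all genes did. At an unadjusted p under 0.05, 9 were lower, where 8.68% of all genes were. Bpifa1, an abundant secreted protein of the nasal airway, stood at 10.89, 12.66 and 11.37 in heterozygous cells and at 12.99, 10.45 and 10.26 in null cells. Reg3g, a secreted antimicrobial lectin, stood at 10.92, 12.04 and 10.74 and at 12.68, 11.18 and 10.90. In both of these genes the groups overlapped, in Bpifa1 only through null replicate 1. Without that array Bpifa1 differed by -1.29 (limma adjusted p = 0.249) and Reg3g by -0.19 (limma adjusted p = 0.844). The summed signal of the list, in log2 units, was 12.95, 14.07 and 12.88 on the heterozygous and 14.5, 12.59 and 12.47 on the null arrays. Null replicate 1 was highest in it, and the other null arrays lay below all 3 heterozygous arrays. The part of gland content in the fall of the 7 genes was not tested.

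Markers of mature olfactory neurons had negative differences as well. Of 10 markers 10 had a negative difference, as did 9012 of 19938 genes. The 10 ran from -1.83 for Stoml3 to -0.45 for Rtp1, and by limma 0 passed, where 0.552% of all genes did. At an unadjusted p under 0.05, 7 were lower, where 5.25% of all genes were. Their summed signal in log2 units was 13.85, 13.90 and 14.33 on the heterozygous and 11.57, 13.24 and 13.33 on the null arrays. The lowest value was 5.46, that of Cnga4 on null replicate 1, below the median of that array (5.95). Without null replicate 1 the median difference was -0.86 in place of -1.30, and 3 of 10 fell, where 1.67% of all genes did. Rtp1 turned to 0.09 in that fit, and Cnga2 moved from -1.14 to -0.49 and Slc17a6 from -0.88 to -0.35. Differences of the 7 genes ran from -6.71 to -1.79, and the part of mature neuron content in them was not tested.

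Relatives of the 7 genes were examined by family. A list of 110 genes held 25 lipocalins, 10 secretoglobins, 15 carbonic anhydrases, 13 genes of caseins and their cluster and 45 EF-hand calcium sensors. It also held 2 salivary proline-rich proteins. Proteins were not compared here, so whether any of the 7 genes is related to this group was not examined. By limma 0 of the 110 passed, where 0.552% of all genes did, so 0 is near that share. An unadjusted p under 0.05 was reached by 7 that were lower and 8 that were higher, where 5.25% and 4.23% of all genes (together 9.48%) reached it. Their median difference was 0.02, the same as over all genes. Without null replicate 1, 4 fell and 2 rose, where 1.67% and 0.993% of all genes (together 2.66%) did.

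Among lipocalins the smallest p belonged to Lcn8 (difference 0.33, SE 0.11) and Obp2a (-1.03, SE 0.44), with limma adjusted p of 0.423 and 0.539. Obp2a, an odorant-binding lipocalin, stood at 3.70, 5.44 and 5.08 in heterozygous cells and at 3.57, 3.68 and 3.86 in null cells. It had the order of heterozygous arrays seen in Lcn11, although replicate 1 overlapped the null range and all null values lay under the lower quartile. Lcn2, an iron-siderophore carrier of innate immunity, had means of 8.09 and 7.82 in heterozygous and null cells. In this family 14 of 25 genes lay under the lower quartile on every null array, as did 2766 of 19938 genes. All of the 14 but Obp2a lay under it on every heterozygous array too.

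Secretoglobins other than Scgb2b27 had a median difference of -0.04, with Scgb1b2 at 0.35 (SE 0.13, limma adjusted p = 0.46) and Scgb1a1 at -0.14 (SE 0.08, limma adjusted p = 0.646). Scgb1b27, whose gene lies next to Scgb2b27, had means of 5.64 and 5.73. Scgb1c1, a secretoglobin of the olfactory mucosa, stood at 9.20, 9.75 and 9.18 in heterozygous cells and at 10.15, 7.91 and 7.95 in null cells. Its null replicate 1 lay above all heterozygous values and the other null arrays below them. It differed by -0.71 over all arrays (SE 0.62, limma adjusted p = 0.741) and fell by 1.45 without that array (SE 0.18, limma adjusted p = 0.0126), and it was chosen after its values were seen.

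Car2, the cytosolic enzyme, stood at 7.31, 8.24 and 8.14 in heterozygous cells and at 9.11, 10.77 and 10.61 in null cells. The difference of 2.27 (SE 0.50) did not pass over all arrays (limma adjusted p = 0.197). It passed with the replicate number as a block (limma adjusted p = 0.0489), and was 2.79 without null replicate 1 (SE 0.27, limma adjusted p = 0.00443). Car3 differed by 0.47 (SE 0.19, limma adjusted p = 0.523) and the other 13 relatives by between -0.24 and 0.42.

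Of the casein cluster, Csn1s1 stood at 4.21, 3.94 and 4.21 in heterozygous cells and at 3.35, 3.49 and 3.46 in null cells (difference -0.68, SE 0.11, limma adjusted p = 0.0872). Its values lay under the lower quartile on all 6 arrays, where the background estimate sets differences, and it fell by 0.64 without null replicate 1 (limma adjusted p = 0.0427). Smr3a, a submaxillary gland protein, differed by -0.25 (SE 0.10, limma adjusted p = 0.499). In this list 11 of 13 genes lay under the lower quartile on every null array, as did 2766 of 19938 genes. All 11 lay under it on every heterozygous array too. The salivary proline-rich genes Prp2 and Prpmp5 differed by 0.26 (limma adjusted p = 0.731) and 0.04 (limma adjusted p = 0.919).

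EF-hand calcium sensors beside Scgn showed Kcnip4, a potassium channel partner, at -1.02 (SE 0.18, limma adjusted p = 0.124) and Hpca, hippocalcin, at 0.66 (SE 0.13, limma adjusted p = 0.152). Without null replicate 1 Kcnip4 fell by 0.88 and Hpca rose by 0.73. Ncald, neurocalcin, fell by 0.79 in that fit (limma adjusted p = 0.0231). Vsnl1, visinin-like protein, had the lowest difference of this list (-1.64, limma adjusted p = 0.401). Calb2, calretinin, a calcium buffer of many neurons, had means of 11.05 and 10.75.

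**Figure D4:**
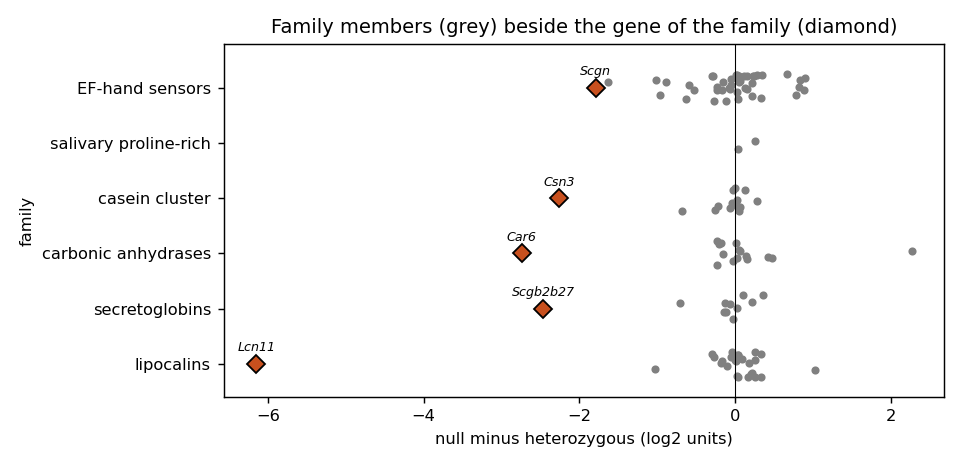
Null minus heterozygous difference in log2 units (x axis) of the genes of 6 families (y axis), with grey dots for relatives and a diamond for the gene described here, dots being spread vertically at random. The row of salivary proline-rich genes has no diamond. Lcn11 at -6.15, Car6 at -2.74, Scgb2b27 at -2.46, Csn3 at -2.27 and Scgn at -1.79 each lie below every relative shown, and Car2 is the dot at 2.27.

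The 7 genes lie on chromosomes 2 (Lcn11), 6 (5430401F13Rik), 5 (BC051076 and Csn3), 4 (Car6), 7 (Scgb2b27) and 13 (Scgn) in the RefSeq gene order. BC051076 and Csn3 were next to each other among measured genes. Within 5 measured genes on each side of the 7 there were 60 other genes, some of them relatives counted above. By limma 0 of these 60 passed, where 0.552% of all genes did, so 0 is near that share. An unadjusted p under 0.05 was reached by 1 lower and 2 higher genes, where 5.25% and 4.23% of all genes reached it. The median difference of the 60 was 0.04. Of the 60, 25 lay under the lower quartile on every null array, as did 2766 of 19938 genes. Those that were as low in heterozygous cells, such as Tas2r130, had little room to fall. Without null replicate 1, 0 fell and 1 rose, where 1.67% and 0.993% of all genes did. The 1 that rose was Ripor2 near Scgn (0.75, limma adjusted p = 0.015).

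Around Lcn11, Lcn3 on one side differed by 0.18 (SE 0.18) and Glt6d1 on the other by 0.09 (SE 0.10). The neighbours with the smallest p there were Obp2a (-1.03) and Bmyc (-0.20, limma adjusted p = 0.545). Next to 5430401F13Rik, Ybx3, a cold-shock domain protein, differed by 0.13 (SE 0.15) and the bitter taste receptor Tas2r130 by 0.12 (SE 0.10), and the latter lay below 4 in both groups. Tas2r130 and Tas2r104 (0.12) had the smallest p in that neighbourhood, with limma adjusted p of 0.732 and 0.729. In the casein cluster, the pair of Csn3 and BC051076 was flanked by BC037156 (0.05, SE 0.10) and Cabs1 (0.0033, SE 0.12). Neighbours with the smallest p there were Smr3a (-0.25) and Odam (-0.22, limma adjusted p = 0.539).

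Beside Car6, the sugar transporter gene Slc2a7 differed by 0.07 (SE 0.09) and Rere by 0.14 (SE 0.09). Gpr157 (0.28, limma adjusted p = 0.411) had the smallest p in that stretch, followed by H6pd (0.31, limma adjusted p = 0.659). Beside Scgb2b27, Scgb2b24 differed by -0.03 (SE 0.10) and Scgb1b27 by 0.09 (SE 0.13), and the smallest p belonged to Scgb1b2 (0.35) and Wtip (0.37, limma adjusted p = 0.578). Beside Scgn, the histone gene H2ac1 differed by 0.04 (SE 0.15) and Carmil1 by 0.04 (SE 0.23), with the smallest p for Slc17a4 (0.19, limma adjusted p = 0.646) and Ripor2 (0.44, limma adjusted p = 0.655).

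**Figure D5:**
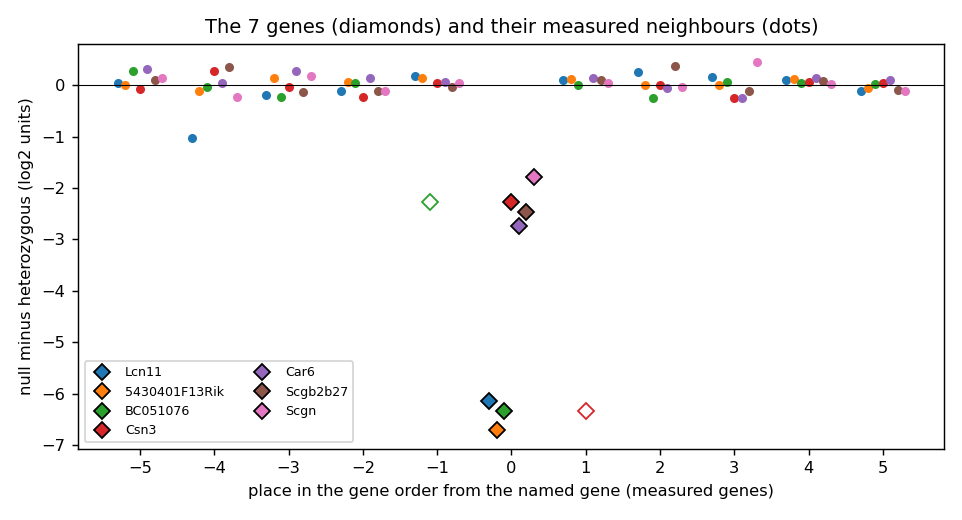
Null minus heterozygous difference in log2 units (y axis) against the place among measured genes counted from each of the 7 genes (x axis), 1 colour per gene, with filled diamonds for the 7 genes at place 0 and dots for neighbours. Open diamonds are Csn3 and BC051076 seen from each other. Apart from these, the neighbours lie between -1.03 (Obp2a) and 0.44 (Ripor2).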

How the data were processed

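Cells sorted for EGFP from E18.5 olfactory epithelium gave 3 heterozygous and 3 null arrays, Affymetrix Mouse Gene 1.0 ST per the series' design text, from 100 ng of RNA each per the labels' protocols. The authors deposited 1 log2 signal for each probe set and array. GCRMA and Affymetrix Expression Console are named for it in the submitters' processing notes. The log base was taken from the range of values, 2.14 to 14.51, and versions and filters are not given in the sources used here. GCRMA subtracts an estimated background, so differences near the bottom of the range depend on that estimate. The values were used without further normalisation.

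The platform annotation (2016) gave a single symbol for 21789 of 35557 probe sets and several for 1621, and 12147 were not listed. Symbols were updated through Entrez numbers to RefSeq GRCm38.p6 (21698 matched), which also gave the gene order. Each of 19938 genes was read from its probe set with the highest mean. Genotypes were compared by lmFit and eBayes of limma 3.58.1 under R 4.3.3 (two-sided, Benjamini-Hochberg over all genes, threshold 0.05). Since no label ties a replicate to an embryo, p-values measure only the spread between samples, which may be technical. On simulated data with 200 of 19938 genes changed between 3 and 3 arrays, 53% of 2-fold and 75% of 4-fold changes were recovered, in 129 calls of which 1 was false.

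The 7 genes, the family and marker lists and the neighbour rule were chosen with earlier results of these data known. Genes named were the 7, Fezf1, those past the threshold or the 2 with the smallest p in each family and neighbourhood, those sharing the high-to-low pattern, and the 8 nearest profiles. Names beyond these, such as Lcn2, Scgb1c1, Calb2, Vsnl1, Cyp2g1, Cnga2, Cnga4, Slc17a6, Bpifb9b, Bpifa1, Reg3g and the genes flanking each of the 7, were chosen after values were seen. The planned match of proteins was not run, because protein sequences were not used here.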

Additional observations from a re-analysis of the deposited data

How the results depend on the processing

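All 87 recomputed differences of the 7 genes were negative, and 84 lay within 1 SD of the value given. The 3 that moved were those of 5430401F13Rik, Csn3 and Scgb2b27 with values raised to the lower quartile of the array. Restricting the test to genes above the median mean left 3 of the 7, whose median was -6.34 against -2.74. It left 24 genes past the threshold against 110, with 13 lower against 91 and 11 higher against 19. Leaving out 1 array gave 40 to 531 genes (the highest without null replicate 1), 0 to 6 of the family genes, 0 to 1 of the neighbours, and 4 to 7 of the 7 genes. Lcn11, 5430401F13Rik, BC051076 and Csn3 passed in all 6 of these fits, Car6 and Scgb2b27 in 2 and Scgn in 1. Of these, Car6 and Scgb2b27 passed without heterozygous replicate 1 or null replicate 1, and Scgn without null replicate 1. Quantile normalisation and median centring gave 6 of 7 each (not Scgb2b27 and not Scgn), and the floor at the lower quartile 5. The labels state no pairing by replicate number. Same-numbered deviations correlated at 0.23, -0.33 and 0.54 for replicates 1, 2 and 3. The same number was the best match for replicates 1 and 3 but not for replicate 2. With 3 arrays a group these values cannot settle whether the arrays were paired. With the replicate number as a block, 88 genes passed (83 lower, 5 higher), 5 of the 7 genes passed and 1 family gene, Car2 (2.27, limma adjusted p = 0.0489). The gland list stayed at 0 of 29 in every alternative run. Over all genes 0.552% passed in the main fit and 2.66% without null replicate 1, and 0 of 29 is near these shares. Scanner values were not used here, so signal over background was not examined.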

Other observations

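Some genes other than the 7 shared the gap between heterozygous replicate 1 and the other heterozygous arrays. Among them were Obp2a and Car2, whose differences between genotypes went in opposite directions (-1.03 and 2.27), and 158 odorant receptors.

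A few genes picked after their values were seen were high on heterozygous replicate 2 alone, the highest array for 6 of the 7 genes. Rbp3 stood at 4.60, 7.73 and 5.57 on heterozygous replicates 1, 2 and 3 and between 4.62 and 4.89 on the null arrays. Neurod4 stood at 4.51, 8.02 and 5.43 and between 3.72 and 4.52 on the null arrays. Rorb stood at 4.87, 8.48 and 5.79 and between 4.51 and 5.11 on the null arrays. The part of such transcripts in the values of the 7 genes was not tested.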
